A study of Mus musculus with 6 samples.

Results

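The genes described here encode the ETS and Krüppel-like transcription factors. They were found by symbol among the 22609 gene rows of the count files. Symbols made of Klf and a number, or of Etv, Elf or Elk and a single digit, were taken, and with them Ets1, Ets2, Ehf, Erf, Erg, Fli1, Gabpa, Spi1, Spib, Spic, Spdef and Fev. This gave 43 genes, 26 of the ETS family and 17 of the Krüppel-like (KLF) family. Of these, 42 carried the symbol itself and 1, Spi1 (PU.1), is listed under its older name Sfpi1, which is used below.

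The study measured polyadenylated RNA in primary hepatocytes of 4-month-old male wild-type C57BL/6 mice. The cells received either PBS or LRG1 protein at 20 µg/mL for 16 h, with 3 samples in each group. LRG1 is a leucine-rich glycoprotein that cells secrete, and the series title ties it to fatty liver and insulin resistance. The labels do not name the source of the protein. They also leave unsaid if each sample had its own mouse or culture dish, so a p-value covers just the spread of these samples, which may be technical.

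ETS factors share a DNA-binding domain that reads a GGAA core. Several are switched on or off through phosphorylation by the ERK kinases, which lie downstream of growth factor receptors. Krüppel-like factors bind GC-rich and CACCC boxes through zinc fingers at their C-terminal end, as do the related SP factors. They recruit corepressors of the CtBP or Sin3 type, or acetyltransferases, depending on the subgroup. In the liver, Krüppel-like factors are known for work in metabolism, as with Klf15 in amino acid breakdown and glucose production during fasting, and in the response to injury, as with Klf6. Ets1 and Ets2 are known as nuclear targets of growth factor signalling.

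In hepatocytes given LRG1, 10 of 19 tested ETS genes, Ehf among them, were higher at an adjusted p under 0.05, and 2 were lower. The share higher was 52.6%, beside 25.5% of all tested genes. Of 13 tested Krüppel-like genes, 2 were higher and 3 lower (23.1%), beside 25.8% lower of all tested genes. Ehf, an ETS gene of epithelia, went from no read in any PBS library to 234 reads in the LRG1 group. Elk3 was 3.04-fold, Elf4 2.58-fold and Ets1 2.11-fold higher, while Elf3 was 2.20-fold and Ets2 1.67-fold lower. Among Krüppel-like genes, Klf15 was 3.93-fold lower, Klf9 1.52-fold and Klf5 1.5-fold lower, and Klf10 1.54-fold higher. Klf6, the Krüppel-like gene with the highest level per length, did not pass the test.

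Each library held 18625748 to 23036332 reads in genes, and 12301 genes had enough reads to be tested with edgeR's quasi-likelihood test. Of the 43 members, 32 were tested, 19 ETS and 13 KLF genes. A gene is called here when its p-value, adjusted over all 12301 genes, is under 0.05. Of the 32, 17 were called (53.1%) and 15 did not pass, beside 51.4% called of all tested genes. The effect of LRG1 was wide, and of all tested genes 25.5% were called higher and 25.8% lower. Of the 19 tested ETS genes, 10 were called higher (52.6%), 2 lower (10.5%) and 7 did not pass. Of the 13 tested KLF genes, 2 were called higher (15.4%), 3 lower (23.1%) and 8 did not pass. The median log2 fold change was 0.23 over the tested ETS genes and 0.021 over the tested KLF genes, beside 0.0093 over all tested genes. Ehf passed the filter on low counts only through the LRG1 group, where it is high. It is included in the counts of tested and called members and of ETS genes called higher, where its call is no independent result. The ETS median is the same with Ehf at the lower bound given below.

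With a change of at least 1.5-fold added to the rule, 4 ETS genes, Ehf among them, and 1 KLF gene were higher. The share of all tested genes was 7.49%. In the other direction, 2 ETS and 3 KLF genes were lower by as much, against 10.6% of all tested genes. Values of the 3 LRG1 libraries lay wholly above those of the 3 PBS libraries for 12 of 19 ETS and 3 of 13 KLF genes. The 12 include Ehf, and the share of all tested genes was 29.0%. They lay wholly below for 2 ETS and 4 KLF genes, against 28.6%.

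**Figure D1:**
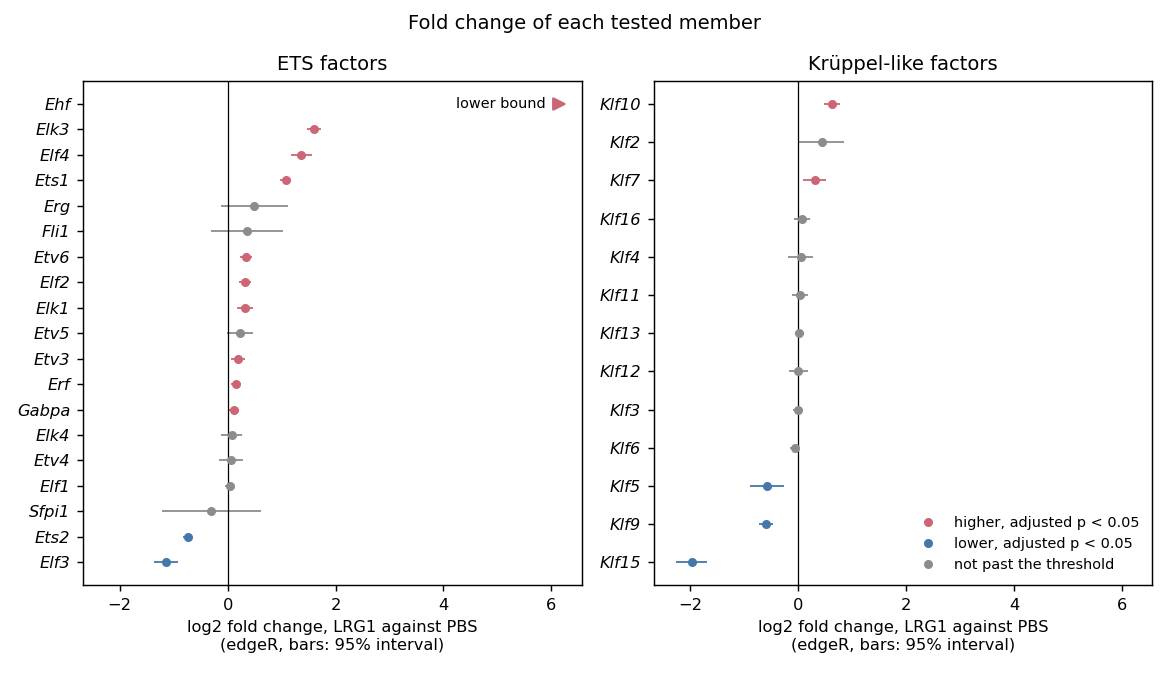
Log2 fold change of LRG1 against PBS for the 19 ETS (left) and 13 Krüppel-like genes (right) that were tested, with 95% intervals from the edgeR fit, coloured by call at an adjusted p of 0.05. The triangle for Ehf stands at its lower bound, since no PBS library had a read, and Klf15 is the lowest point.

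The promoters of 4 of the strongly changed members are shown because these genes moved in both directions, Elk3 up and Elf3, Ets2 and Klf15 down. Each sequence runs from 250 bases before to 50 bases after a RefSeq start, build GRCm38.p6, 5′ to 3′ on the gene's strand. They lie at chr10:93311110-93311409 (minus strand, Elk3), chr1:135258423-135258722 (minus strand, Elf3), chr16:95702157-95702456 (plus strand, Ets2) and chr6:90462326-90462625 (plus strand, Klf15). Capitals mark matches, on either strand, to the box CCNCNCCC, a form of the site read by Krüppel-like and SP factors, where overlapping matches run together.
Elk3: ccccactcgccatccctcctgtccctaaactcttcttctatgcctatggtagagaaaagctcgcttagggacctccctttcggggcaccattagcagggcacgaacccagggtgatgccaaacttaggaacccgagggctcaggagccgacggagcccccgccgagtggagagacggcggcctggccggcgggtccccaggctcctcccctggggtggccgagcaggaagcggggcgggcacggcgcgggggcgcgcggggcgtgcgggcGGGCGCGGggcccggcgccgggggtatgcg
Elf3: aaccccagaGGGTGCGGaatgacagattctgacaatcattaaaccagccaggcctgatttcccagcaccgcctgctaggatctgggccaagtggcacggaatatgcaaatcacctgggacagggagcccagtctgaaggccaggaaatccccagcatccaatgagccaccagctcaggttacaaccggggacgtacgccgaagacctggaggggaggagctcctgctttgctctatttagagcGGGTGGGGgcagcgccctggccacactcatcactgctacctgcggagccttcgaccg
Ets2: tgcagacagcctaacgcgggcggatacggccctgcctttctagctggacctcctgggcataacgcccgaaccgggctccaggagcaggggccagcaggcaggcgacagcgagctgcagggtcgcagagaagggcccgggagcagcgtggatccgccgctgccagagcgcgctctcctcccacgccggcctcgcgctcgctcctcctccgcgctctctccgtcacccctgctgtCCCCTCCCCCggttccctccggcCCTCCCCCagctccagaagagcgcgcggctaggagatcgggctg
Klf15: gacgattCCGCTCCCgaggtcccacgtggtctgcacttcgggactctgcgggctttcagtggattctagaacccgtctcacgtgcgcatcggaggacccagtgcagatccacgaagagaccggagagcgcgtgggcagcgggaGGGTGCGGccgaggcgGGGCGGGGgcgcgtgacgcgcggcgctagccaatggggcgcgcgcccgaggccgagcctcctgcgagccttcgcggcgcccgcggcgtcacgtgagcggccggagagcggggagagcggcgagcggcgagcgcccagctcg
The Elk3 promoter held 1 such box, Elf3 held 2, and Ets2 and Klf15 held 3 each. Not every strongly changed member had a box in each window. Klf9, which was lower, had 0, and the windows of Elf4, which was higher, had 3 and 0. Those windows are not shown. For Ehf, Ets1, Klf5 and Klf10, also strongly changed, the promoter set used here held no window. The stricter ETS site CCGGAA, which is longer than the GGAA core, was searched on both strands too and had no match in these 4 windows. The GGAA core itself does occur in them and was not counted.

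RefSeq gave 45 promoters for 34 of the 43 members, tested or not. Some genes had several windows, which for Elk4 overlap in part, and each window was counted. The box was present in 33 of them (73.3%), 21 of 31 for ETS genes and 12 of 14 for KLF genes, beside 49.5% of all 32851 promoters of this length. The stricter site CCGGAA was present in 3 of the 45 (6.67%), beside 14.9% of all promoters. Those 3 belong to Elk4, Gabpa and Klf8. The members' promoters were richer in G and C, with a median of 60% against 52.7%, and had a median of 19 CpG pairs against 7. The part of base composition in the count of boxes was not tested. A match describes the letters and is not evidence of binding.

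Ehf and Elf3 encode closely related ETS factors of epithelia, which in the liver are tied to bile duct cells more than to hepatocytes. Ehf had 0 reads in each PBS library and 87, 80 and 67 reads in LRG1 replicates 1 to 3. That is 3.72 ± 0.531 CPM (read counts scaled to a common library total with edgeR's TMM factors; SD, n = 3) after LRG1. All LRG1 libraries were thus far above the PBS libraries, but the level remained low. Set against a floor of 3 reads over the whole PBS group, Ehf was at least 70.7-fold higher. This bound takes the LRG1 reads as counted and leaves out their own counting error. No p-value is given for it, because it entered the test through the LRG1 libraries alone.

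Elf3 moved the other way. Its values were 14.02, 18.5 and 16.5 CPM in PBS replicates 1 to 3, and 7.87, 7.17 and 7.21 CPM in LRG1 replicates 1 to 3. The lowest PBS library stood well above the highest LRG1 library, and the PBS libraries varied more among themselves. The log2 fold change was -1.14 (SE 0.11, edgeR adjusted p = 4.81e-09). Elf3 shares 7.73% of its exon bases with an antisense transcript, and the strand setting of the counting is not known. Elf5, the other factor of this group, had no read in any library.

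Markers of bile duct cells moved both ways in the same libraries. Of 7 tested markers out of 10 listed, 3 were called higher (among them Cldn4 and Sox9), 2 lower (Krt19 and Prom1), and 2 did not pass. The share called was 71.4%, beside 51.4% of all tested genes. Epcam had 22 reads in the PBS and 48 in the LRG1 group, Krt7 had 9 and 25, and Cftr had 0 PBS reads. Summed over the list, which Spp1 and Cldn4 dominate, the level was 5112 to 5427 CPM with PBS and 6196 to 6462 CPM with LRG1. Their part in the values of Ehf and Elf3 was not tested. In bulk samples like these, fewer cells of a type and less RNA per cell cannot be told apart.

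Ets1 and Ets2 are the founding pair of the family, activators that ERK phosphorylates on a shared site. Ets1 stood at 86.9, 79.7 and 76.8 CPM with PBS and at 171.2, 166.5 and 175.4 CPM with LRG1. The groups were far apart, with a log2 fold change of 1.07 (SE 0.046, edgeR adjusted p = 2.77e-15). Ets2 stood at 171, 173 and 168 CPM with PBS and at 103, 104 and 100.2 CPM with LRG1. Its log2 fold change was -0.74 (SE 0.040, edgeR adjusted p = 1.45e-13), and again no library overlapped. Per kilobase of exon, the ratio of Ets1 to Ets2 was 0.350 to 0.388 in the PBS libraries and 1.23 to 1.34 in the LRG1 libraries, so the order of the pair was reversed. Exon lengths for such ratios came from the GENCODE M21 models and not from the authors' annotation.

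Elk1, Elk3 and Elk4 encode the ternary complex factors, which sit beside serum response factor (SRF) on DNA and are activated by ERK. Elk3, a repressor in its resting state, had 20.1, 21.6 and 21.2 CPM in the PBS libraries and 63.6, 66.0 and 61.2 CPM in the LRG1 libraries. The 3 libraries of a group were close together and the groups far apart, with a log2 fold change of 1.60 (SE 0.059, edgeR adjusted p = 1.76e-16). Elk1 rose less, from 24.1 ± 2.35 to 30.01 ± 1.20 CPM (SD, n = 3; log2 fold change 0.32). Elk4 had 19.9 ± 2.56 and 21.1 ± 2.49 CPM and did not pass (95% interval -0.12 to 0.27 in log2). Elk3 per kilobase was 0.667 to 0.806 times Elk1 with PBS and 1.78 to 1.79 times Elk1 with LRG1.

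In the ELF group, Elf4 (MEF), known from blood cells and from interferon induction, had 16.7, 12.1 and 12.2 CPM with PBS and 35.1, 36.2 and 34.7 CPM with LRG1. PBS replicate 1 was the highest of its group and still under 20, and every LRG1 value was over 30 CPM. The log2 fold change was 1.37 (SE 0.091, edgeR adjusted p = 7.99e-12). Elf2 had 49.5 ± 2.75 CPM with PBS, rose to 62.1 ± 2.41 CPM, and had a log2 fold change of 0.33. Elf1, at a higher level, had 77.7 ± 2.66 and 79.8 ± 1.40 CPM and did not pass, and its 95% interval ran from -0.057 to 0.13. Elf1 shares 7.55% of its exon bases with Wbp4 on the opposite strand.

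**Figure D2:**
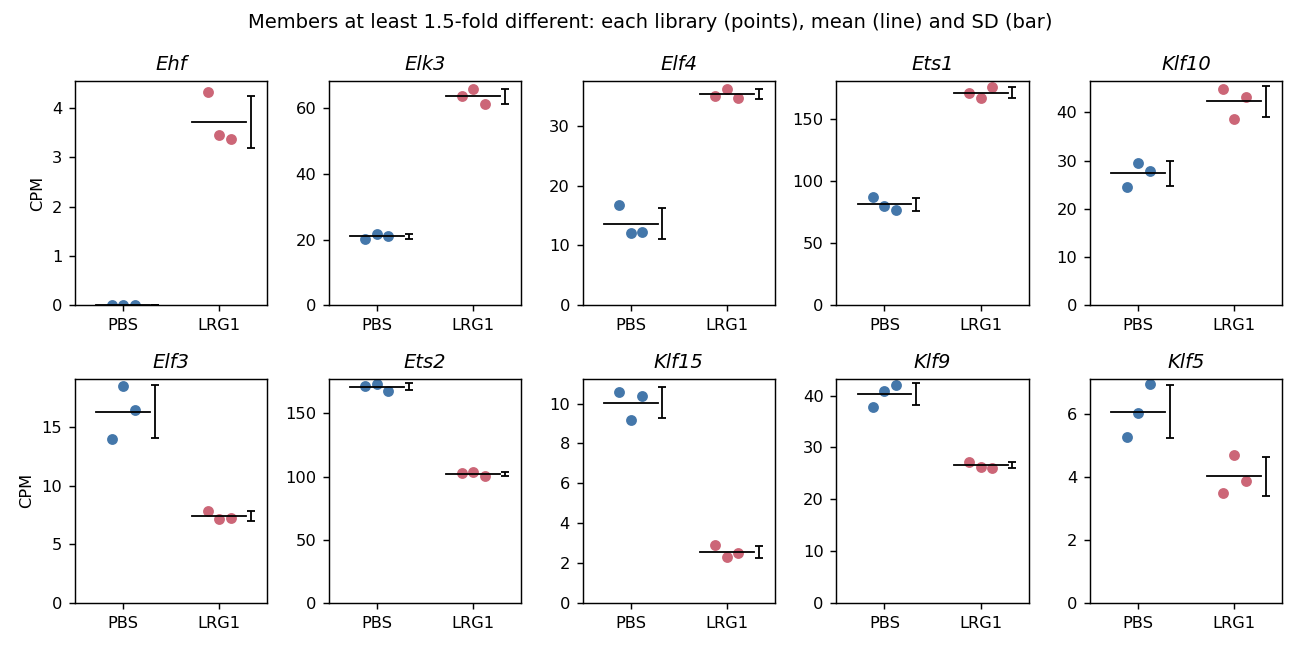
Expression in CPM (vertical axes, each from 0) of the 10 members called and at least 1.5-fold different, with 1 point per library, a line at the group mean and a bar for the SD. In every panel the 3 LRG1 points and the 3 PBS points do not overlap, and Klf5 shows the narrowest gap relative to its spread.

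The dedicated repressors of the ETS family rose by small amounts. Etv6 (TEL), a repressor best known from leukaemia fusions, went from 47.4 ± 1.995 to 60.1 ± 1.09 CPM (log2 fold change 0.34, edgeR adjusted p = 6.42e-06). Erf, a repressor that ERK sends out of the nucleus, had 93.7 ± 4.78 and 104 ± 3.83 CPM, a log2 fold change of 0.15 (edgeR adjusted p = 0.00813). Its relative Etv3 had a log2 fold change of 0.19 (edgeR adjusted p = 0.0147). Erf missed the threshold when trends in GC content and length were removed (adjusted p = 0.279) or LRG1 replicate 1 was left out (adjusted p = 0.050). Its adjusted p lay between 0.00232 and 0.279 over the alternatives. Etv3 missed it when PBS replicate 2 (adjusted p = 0.0912) or LRG1 replicate 2 (adjusted p = 0.0576) was left out, and its adjusted p lay between 0.00828 and 0.0912.

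Gabpa, the DNA-binding subunit of the GABP complex that drives many housekeeping and mitochondrial genes, was at the edge of the threshold. It stood at 64.5 ± 0.809 CPM with PBS and at 69.7 ± 1.15 CPM with LRG1, a log2 fold change of 0.11 (edgeR adjusted p = 0.0466). The LRG1 libraries lay above the PBS libraries, but the call was lost in 11 of 15 alternatives, with an adjusted p between 0.0236 and 0.152. Removing any of the 6 libraries was enough, with adjusted p-values of 0.0854, 0.111 and 0.0715 without PBS replicates 1, 2 and 3 and 0.0732, 0.152 and 0.0685 without LRG1 replicates 1, 2 and 3. Its exons share 182 bases with Atp5j on the opposite strand.

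The PEA3 group, whose members are common readouts of FGF and ERK signalling, did not pass. Etv4 had 9.98 ± 1.23 and 10.4 ± 0.975 CPM, with a 95% interval of -0.16 to 0.29 in log2. Etv5 had 6.20 ± 0.382 and 7.27 ± 0.387 CPM with no overlap between the groups, but an adjusted p of 0.114 in the edgeR fit. Its 95% interval, from -0.017 to 0.48, stays within 1.5-fold. Of the 50-base stretches in Etv5 transcripts, 24.5% also occur in a transcript of Gm4798, so reads with several alignments may be missing from its count. Etv1 had a single read, in LRG1 replicate 2.

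ETS factors of other cell types were scarce. Erg and Fli1 mark endothelium, where they hold cells in their vascular state. Erg had 17, 11 and 17 raw reads in the PBS libraries and 29, 21 and 20 in the LRG1 libraries, and Fli1 had 15, 9 and 12 against 20, 16 and 15. Neither passed (edgeR adjusted p = 0.174 and 0.376), and their 95% intervals, from -0.12 to 1.11 and from -0.31 to 1.03, are too wide to exclude a 1.5-fold rise. Of 8 tested endothelial markers out of 10 listed, 2 were lower (Stab2 and Lyve1), none higher, and 6 did not pass. The share called lower was 25%, beside 25.8% of all tested genes. For the endothelial list as a whole, levels were summed. Their sum was 45.2 to 47.7 CPM with PBS and 38.9 to 43.1 CPM with LRG1.

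Sfpi1 (PU.1), the factor that sets macrophage and B cell fate, had 6, 12 and 10 reads with PBS and 8, 5 and 12 with LRG1 and did not pass (edgeR adjusted p = 0.599). Its 95% interval ran from -1.21 to 0.61. Spic, known from iron-recycling macrophages, had 3, 8 and 4 reads with PBS and 5, 1 and 2 with LRG1. The ratio of LRG1 to PBS was 0.483, with an exact 95% counting interval of 0.177 to 1.21. Among macrophage markers, Cd68 had a mean of 235.5 CPM with PBS, while the other 8 found summed to 13.2 to 14.98 CPM, with Csf1r at 1.75 and Clec4f at 0.746 CPM. Of the 8 tested out of 9 found, 1 was called higher (Marco), 2 lower (Cd68 and Cd5l), and 5 did not pass. The share called was 37.5%, beside 51.4% of all tested genes. The sum of the 9, mostly Cd68, was 224.5 to 270.1 CPM with PBS and 184.6 to 210.3 CPM with LRG1. Of 10 lymphocyte markers 9 had no read, and Spib, a lymphoid factor, had 1 read in the PBS and 2 in the LRG1 group. Against this stood 26080 to 27390 CPM for 9 hepatocyte markers in the PBS libraries, among them Alb and Apoa1, and 24030 to 25080 CPM in the LRG1 libraries. Of these 9, 4 were lower (Cps1, Fgb, Apoa1 and Hnf4a) and 5 did not pass. The share lower was 44.4%, beside 25.8% of all tested genes. Most of the hepatocyte sum was Alb, with means of 19230 CPM with PBS and 18560 CPM with LRG1, which did not pass. The mean of Fgb fell from 3546 to 2063 CPM. Of 9 tested stellate cell markers, 2 were higher (Col1a1 and Acta2), 1 was lower (Reln) and 6 did not pass. That is 33.3% called, beside 51.4% of all tested genes. The sum of all 10 listed was 60.96 to 69.1 CPM with PBS and 158.4 to 168.8 CPM with LRG1. Without Col1a1 it was 50.5 to 55.4 CPM with PBS and 53.9 to 55.2 CPM with LRG1, ranges that overlap. The part of such cells in the members' values was not tested.

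The Krüppel-like genes are taken by the partners their products recruit. The Sin3-binding repressors hold Klf9, Klf10, Klf11, Klf13, Klf14 and Klf16. Of the 5 tested, 1 rose, 1 fell and 3 did not pass, beside 25.5% called higher and 25.8% called lower of all tested genes. Klf10, first described as a gene induced early by TGF-beta, had 24.6, 29.6 and 27.9 CPM with PBS and 45.0, 38.7 and 43.1 CPM with LRG1. The groups stood apart by more than the spread within either, with a log2 fold change of 0.63 (SE 0.072, edgeR adjusted p = 1.01e-07). Klf9, induced by glucocorticoid and thyroid hormone, had 37.9, 40.8 and 42.1 CPM with PBS and 27.2, 26.3 and 26.1 CPM with LRG1. Its LRG1 values were tightly grouped below all PBS values, and the log2 fold change was -0.60 (SE 0.063, edgeR adjusted p = 2.20e-08). Klf10 per kilobase was 0.761 to 0.849 times Klf9 with PBS and 1.73 to 1.94 times Klf9 with LRG1.

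The remaining repressors of this type stayed close to their PBS level. Klf13 had 128 ± 2.54 and 130 ± 1.43 CPM, with a 95% interval in log2 of -0.061 to 0.10. Klf11, a close relative of Klf10 that is also known as a TGF-beta response gene, had 23.7 ± 1.34 and 24.3 ± 0.916 CPM, with an interval from -0.11 to 0.18. Klf16 had 26.0 ± 0.846 and 27.3 ± 1.93 CPM. Klf13 turned to a log2 fold change of -0.10 and a call as lower (adjusted p = 0.024) once GC and length trends were removed. Klf14 had no read.

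Klf15 had the lowest fold change of the members. It lies outside the main subgroups and is induced by fasting and glucocorticoid. Its values were 10.6, 9.16 and 10.4 CPM in PBS replicates 1 to 3 and 2.89, 2.29 and 2.52 CPM in LRG1 replicates 1 to 3. The lowest PBS value was more than 3 times the highest LRG1 value. The log2 fold change was -1.97 (SE 0.14, edgeR adjusted p = 1.97e-11). Per kilobase, Klf10 was 1.67 to 2.32 times Klf15 with PBS and 11.2 to 12.3 times with LRG1.

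The acetyltransferase-binding group, mostly activators, includes Klf1, Klf2, Klf4, Klf5, Klf6 and Klf7. Klf5, an activator of epithelial growth, had 5.26, 6.04 and 6.95 CPM with PBS and 3.49, 4.71 and 3.88 CPM with LRG1. The gap between the groups was narrow, with a log2 fold change of -0.59 (SE 0.15, edgeR adjusted p = 0.00225). Klf7 had 8.41 ± 0.394 CPM with PBS, rose to 10.4 ± 0.694 CPM, and had a log2 fold change of 0.30 (edgeR adjusted p = 0.0182). It missed the threshold with DESeq2 (adjusted p = 0.0548) and when PBS replicate 3 (adjusted p = 0.0609) or LRG1 replicate 1 (adjusted p = 0.0835) was left out. Over the alternatives its adjusted p lay between 0.0136 and 0.0835. Of its exon bases, 39.7% also lie in the noncoding gene Gm26649 on the opposite strand, so its count is uncertain.

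Klf6, a gene induced in liver injury, had 426, 415 and 413 CPM with PBS and 382, 404 and 410 CPM with LRG1. All LRG1 values were under all PBS values by a small margin, but the edgeR test did not pass (adjusted p = 0.142) and the 95% interval ran from -0.15 to 0.011. Klf2, known from endothelium under flow, had 1.97, 1.67 and 1.70 CPM with PBS and 2.74, 2.20 and 2.32 CPM with LRG1. It too showed no overlap and an adjusted p above the threshold (0.0745 in the edgeR fit), with an interval from 0.020 to 0.85 before adjustment. Klf4, a factor of epithelial differentiation and of reprogramming, had 9.07 ± 0.589 and 9.32 ± 1.04 CPM. The CtBP-binding repressors Klf3 and Klf12 had log2 fold changes of -0.0062 and -0.0036, the values nearest to 0 among the members.

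Of the 15 tested members that did not pass, 11 had a 95% interval that lay within 1.5-fold in either direction, 7 of them KLF and 4 ETS genes. The intervals of the other 4, Erg, Fli1, Sfpi1 and Klf2, reached beyond 1.5-fold.

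**Figure D3:**
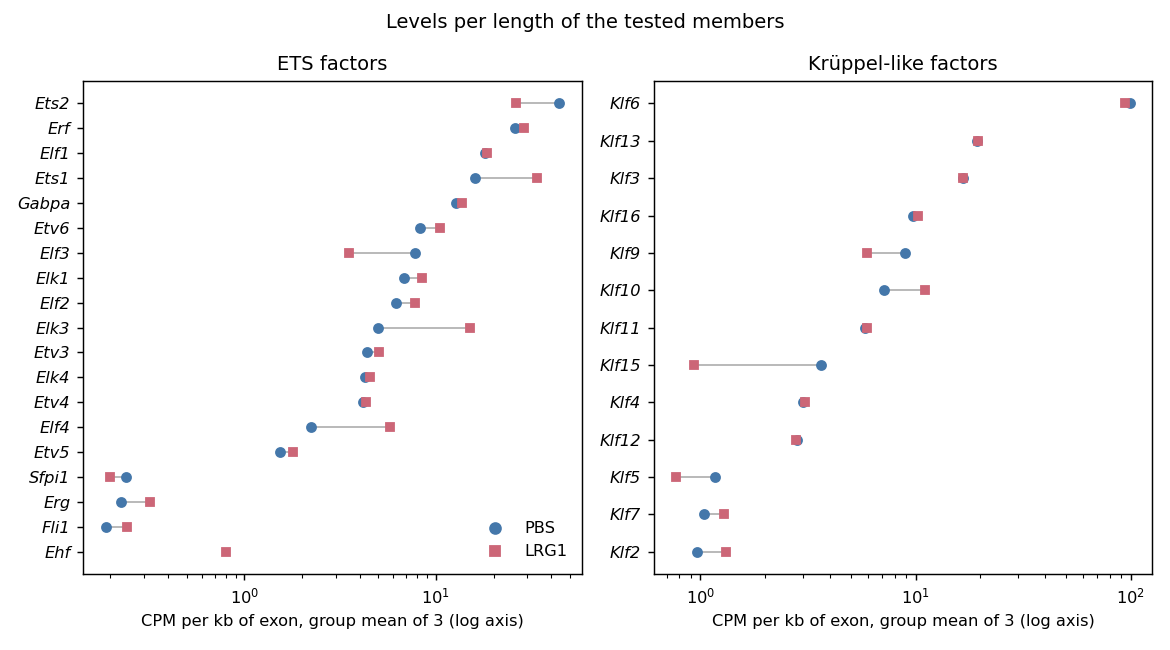
Mean level per length of each tested member (horizontal log axis, CPM per kb of exon, 3 libraries per group), PBS as circles and LRG1 as squares, ordered by the PBS level. Ehf has no PBS circle because it had no read there, and Ets1, Elk3, Elf4, Elf3 and Klf15 show the longest lines among the others.

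Per length, the ETS order at the top changed. With PBS the highest members were Ets2 (44.0 CPM per kb), Erf (26.0) and Elf1 (17.9), with Ets1 in place 4 at 16.0. With LRG1 they were Ets1 (33.7), Erf (28.9) and Ets2 (26.3). Elk3 moved from place 10 to place 5 of the 19 tested ETS genes, and Elf3 from place 7 to place 14. The KLF order kept Klf6 first, at 98.9 CPM per kb with PBS and 94.3 with LRG1, which was 54.3 to 56.1% of the summed KLF level per length in the PBS libraries and 53.0 to 55.0% in the LRG1 libraries. Klf13 and Klf3 followed in both groups, near 19 and 17 CPM per kb. Summed over members, the ETS level was 167 to 169 CPM per kb with PBS and 188 to 191 with LRG1. The KLF sum was 178 to 180 CPM per kb with PBS and 170 to 176 with LRG1.

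The 11 members too scarce for the test, 7 ETS and 4 KLF genes, had at most 8 reads in a library. Elf5, Etv2, Fev, Klf14 and Klf17 had none in any library. A count of 0 still allows a level of up to 0.0525 CPM over the PBS group and 0.0476 CPM over the LRG1 group, counting error only. Klf1, the red cell factor, had 5, 8 and 7 reads with PBS and 5, 2 and 4 with LRG1, a ratio of 0.498 with an exact 95% counting interval from 0.216 to 1.09. Spdef, a factor of secretory epithelia, had 3, 6 and 3 reads against 4, 1 and 2, a ratio of 0.529 (0.176 to 1.46). Klf8 had 3, 1 and 2 reads against 2, 4 and 1, a ratio of 1.06 (0.304 to 3.81). All 3 intervals include equal levels.

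**Figure D4:**
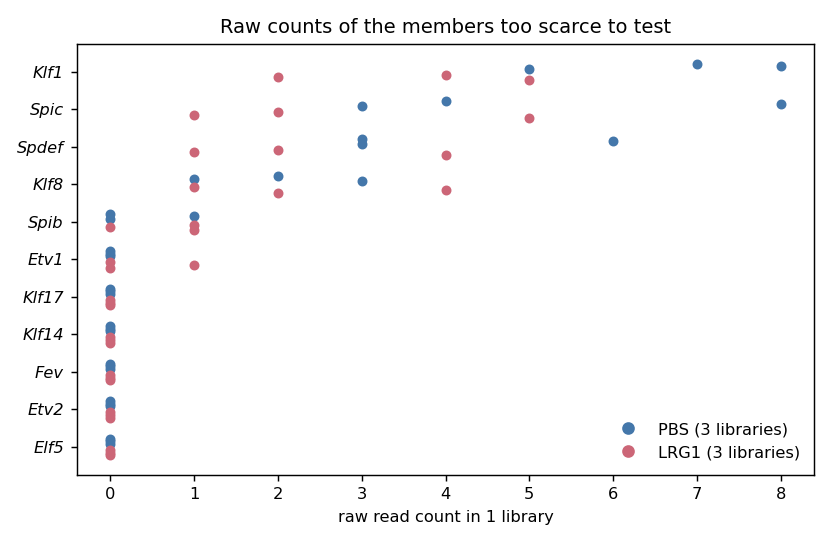
Raw read counts (horizontal axis) of the 11 untested members, 1 point per library, PBS in blue and LRG1 in red, with points offset vertically for clarity. The highest count is 8, in Klf1 and Spic with PBS, and 5 genes have no read in any library.

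Genes whose products act with these factors were taken from 4 lists. The shares called in them stand beside 25.5% called higher and 25.8% called lower of all tested genes. Of the SP factors, which bind the same boxes as Krüppel-like factors, 4 of 9 were tested, and only Sp1 passed, with 93.0 ± 1.81 CPM against 102 ± 4.15 CPM (log2 fold change 0.13, edgeR adjusted p = 0.0166). Sp3, at a like level, had 98.6 ± 3.68 and 99.99 ± 3.93 CPM. Sp1 missed the threshold when PBS replicate 3 (adjusted p = 0.0622) or LRG1 replicate 2 (adjusted p = 0.122) was left out and when GC and length trends were removed (adjusted p = 0.0522). Sp2 and Sp4 did not pass either (log2 fold changes 0.013 and -0.14). The median of the 4 was 0.017.

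Of 11 tested partners of the ternary complex factors and GABP, 2 were higher (18.2%), 2 lower (18.2%) and 7 did not pass, with a median of 0.074. Srf, the factor on which the ternary complex forms, fell from 95.5 ± 5.71 to 69.2 ± 4.88 CPM (log2 fold change -0.46, edgeR adjusted p = 1.49e-07). The actin-responsive SRF coactivators went opposite ways. Mkl2 fell from 143 ± 6.14 to 88.0 ± 1.59 CPM (log2 fold change -0.70), while Mkl1 rose from 45.5 ± 2.24 to 61.1 ± 2.60 CPM (log2 fold change 0.43). Map2k1, which phosphorylates the ERK kinases, was 1.11-fold higher, a call that was lost without PBS replicate 1 (adjusted p = 0.0751). Mapk3 and both GABP beta subunit genes, Gabpb1 and Gabpb2, were among those that did not pass.

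Of 12 corepressor and acetyltransferase genes, 6 were higher (50%), 1 was lower (8.33%) and 5 did not pass, with a median of 0.13. Ctbp2, a corepressor of Klf3, Klf8 and Klf12, rose from 2.68 ± 0.750 to 21.8 ± 1.16 CPM, or 8.09-fold (log2 fold change 3.02, SE 0.13, edgeR adjusted p = 2.48e-15). Of its exon bases, 7.67% also lie in Fgfr2 on the same strand. Its relative Ctbp1 had 136 and 138 CPM and did not pass. Both Sin3 genes, whose products bind Klf9, Klf10, Klf11, Klf13 and Klf16, were higher, Sin3b 1.51-fold and Sin3a 1.27-fold. The acetyltransferase gene Kat2b (PCAF) was 1.73-fold lower. Of the 6 calls, that of Ep300, an acetyltransferase gene, was near the threshold (edgeR adjusted p = 0.0442) and was lost in 9 of 15 alternatives, with an adjusted p between 0.00907 and 0.286. The libraries whose removal ended it were PBS replicate 2 (adjusted p = 0.277), PBS replicate 3 (0.0685), LRG1 replicate 1 (0.122) and LRG1 replicate 2 (0.158). Its relative Crebbp missed the threshold in 3 alternatives, when PBS replicate 1 (adjusted p = 0.0521) or LRG1 replicate 2 (0.0972) was left out and when GC and length trends were removed (0.163).

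Of 10 ubiquitin ligase genes, 4 were higher (40%), 1 was lower (10%) and 5 did not pass, with a median of 0.087. Fbxo32 (atrogin-1) rose from 11.5 ± 0.321 to 35.7 ± 2.41 CPM (log2 fold change 1.63, edgeR adjusted p = 1.39e-14). Smurf2, a ligase that also limits TGF-beta receptor signalling, was 1.40-fold and Fbxw7 1.20-fold higher. The remaining call, of Smurf1 (1.07-fold, edgeR adjusted p = 0.0471), was lost in 12 of 15 alternatives, over which its adjusted p lay between 0.021 and 0.674. Leaving out any of the 6 libraries ended it, with adjusted p-values of 0.0703, 0.0928 and 0.105 for PBS replicates 1, 2 and 3 and 0.0657, 0.103 and 0.132 for LRG1 replicates 1, 2 and 3. Wwp1, a ligase for Klf5, was 1.10-fold lower, but missed the threshold when PBS replicate 3 (adjusted p = 0.0751), LRG1 replicate 2 (adjusted p = 0.0904) or LRG1 replicate 3 (adjusted p = 0.0587) was left out.

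**Figure D5:**
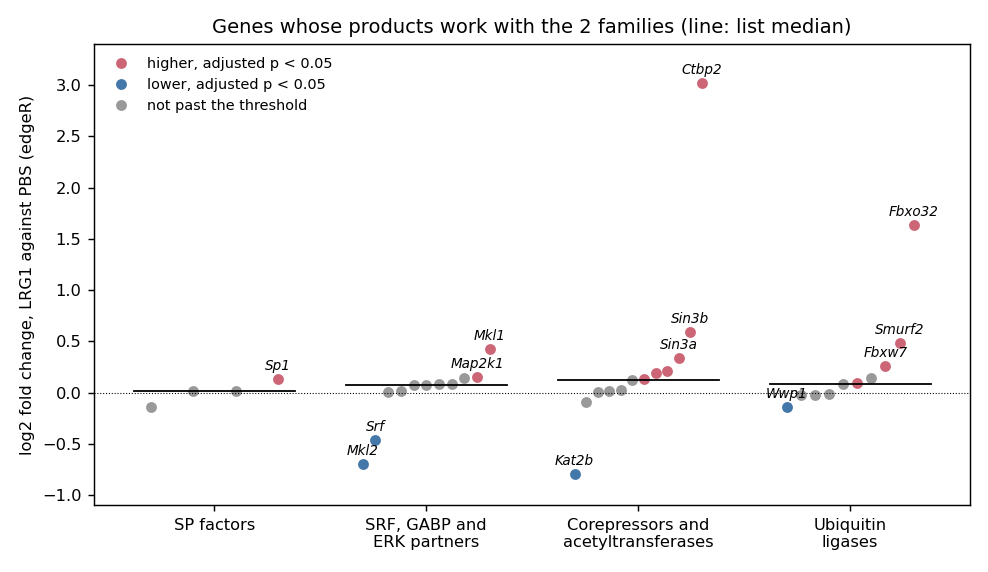
Log2 fold change of LRG1 against PBS (vertical axis, edgeR) for each tested gene of the 4 lists of partners, coloured by call, with a line at the list median. Ctbp2 and Fbxo32 stand above the rest, Kat2b and Mkl2 are lowest, and the medians lie between 0.017 and 0.13.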

How the data were processed

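Polyadenylated RNA of 3 PBS and 3 LRG1 samples was sequenced from a single end at 50 nt. The authors deposited raw counts per gene symbol. Per the submitters' processing notes they used bcl2fastq, TopHat2 and HTSeq with build mm9. Not given in the sources used here are the tool versions, annotation, strand setting and handling of multiply aligned reads. The 5 HTSeq summary rows were left out of library sizes and tests. Reads in no gene made up 8.96 to 10.3% of uniquely aligned reads, and alignments that were not unique 58.2 to 59.3% of row totals, so genes with near-identical copies may be undercounted. Replicates differed by more than sampling noise (chi-square per degree of freedom 2.88 to 4.13).

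From the counts, filterByExpr (minimum count 10) kept 12301 genes, and edgeR 4.0.16 (R 4.3.3) with TMM scaling and the quasi-likelihood F test on treatment alone gave log2 fold changes, adjusted by Benjamini-Hochberg over the tested genes (threshold 0.05). SEs and 95% intervals were derived from the F statistic. CPM used TMM-scaled sizes of the tested genes. The pipeline was tested on simulated data. Alternatives were other scalings, other filters, DESeq2 1.42.0, limma-voom (limma 3.58.1), a replicate block, each library left out and, chosen after seeing the data, GC and length trends removed. Exon lengths and overlaps came from GENCODE M21 (GRCm38) and promoters from RefSeq (GRCm38.p6), neither used with mm9 coordinates.

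Values in every library were given for members called and at least 1.5-fold different and for near-silent members, and up to 4 genes with the smallest p per partner list were named. Klf2, Klf6, Erg, Fli1 and Sfpi1, and further list genes, were also given values after these had been seen. Members and lists were chosen with earlier results of these data known. Counting intervals and limits cover counting error only. Some genes of the lists are counted but not reported here by name.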

Additional observations from a re-analysis of the deposited data

How the results depend on the processing

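Over 15 alternatives (14 for Erg, Fli1 and Sfpi1, which a minimum of 1 CPM in 3 libraries removes), 26 of the 31 tested members with an estimable fold change kept their direction, where called, and their side of the threshold. Among them were all 9 called members at least 1.5-fold different whose fold change could be estimated. The 4 that lost a call in some alternatives were Gabpa, Erf, Etv3 and Klf7. Klf13 reversed with GC and length trends removed, to a log2 fold change of -0.10 called as lower, so that 4 KLF genes were lower there. The cause was not tested. Without Klf7, the number of KLF genes called higher was 1 instead of 2 with DESeq2, and it ranged from 1 to 2 with single libraries left out. ETS genes called higher, Ehf included, ranged from 8 to 10 over all alternatives, and 2 were lower in each. Partner genes called higher ranged from 9 to 15 around 13, and those called lower from 3 to 4. With the replicate block, 9 ETS genes were higher (without Gabpa), and the KLF counts were 2 higher and 3 lower. That block rests on shared numbers alone, since deviations of same-numbered libraries correlated at -0.123, -0.0142 and -0.119 (3 pairs), and no library correlated best with its own number. It moved the count of all called genes from 6317 to 5890. Low counts limit what can be said of Erg, Fli1, Sfpi1 and the 11 untested members.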
